A study of Homo sapiens with 9 samples.

Results

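The surface antigens by which B cell acute lymphoblastic leukemia (B-ALL) is typed and treated were followed in HAL-01 cells after disruption of a MEF2C enhancer. The set was taken by GENCODE 44 symbol and holds 9 of the 62700 genes in the deposited tables: CD22, MS4A1, CD38, CD24, CD9, MME, CD72, CD37 and CD34. MME, CD72, CD37, CD9 and CD34 RNA was higher in MEF2C-enhancer KO cells than in the controls. Summed over all transcripts of a gene, CD37 rose 1.60-fold, MME 1.41-fold and CD72 1.39-fold, and CD9 rose by 0.14 on the log2 scale. CD34 went from 4 estimated counts over 3 control libraries to 60 over 6 KO libraries. It passed the filter on low counts only through KO libraries. No call was made for CD22, MS4A1, CD38 or CD24. In counts scaled for depth all 6 KO libraries of CD22 lay above every control, as for 10.1% of all genes. In TPM, which is scaled for transcript length, the CD22 groups overlapped.

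HAL-01 is a B-ALL line with the t(17;19) translocation, which fuses the transactivation domains of TCF3 to the DNA-binding domain of HLF. All cells of the series carried Cas9 and GFP. The KO class received sgRNA_96 or sgRNA_97, 2 guide RNAs (sgRNA) against the HLF motif in the MEF2C enhancer bound by TCF3::HLF, and the controls received the scrambled guide SCR1. Every group has 3 libraries, with the replicate numbers 1, 3 and 4, from RNA taken on day 13. The libraries were poly(A)-selected bulk RNA of 1 cell line, the share of edited cells was not analysed here, and nothing in the labels says whether the replicates were separate cultures, so p-values measure the spread between these libraries, which may be technical.

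The question behind the comparison is whether this enhancer bears on the leukemia's expression programs, and it is followed here in antigen RNA. Antigen protein at the cell surface was not measured in these libraries. In the B lineage these proteins appear and disappear in order. CD34 marks stem and progenitor cells, MME (CD10), CD9, CD24 and CD38 are carried by precursors, CD22 and CD72 restrain signals from the B cell receptor, and MS4A1 (CD20) and CD37 are strongest on mature B cells. Antibodies, antibody conjugates or engineered T cells against several of them are used or tested in lymphoid malignancies.

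Guide spacers are shown because both KO reagents act on one site. The study's oligonucleotide list names them E.1 and E.2, and which of these is sgRNA_96 was not given in the sources used here. Capitals mark the HLF motif, searched as TTACNTAA.
E.1: tagcaTTACATAAtacatgt
E.2: ttagcaTTACATAAtacatg
Each spacer had 1 exact match in hg38. E.1 matched the minus strand at chr5:88825103-88825122 beside the PAM GGG, and E.2 matched chr5:88825104-88825123 beside the PAM TGG. The sites lie within the MEF2C gene (chr5:88717117-88904257, minus strand) and overlap 0 annotated exons, which places them in an intron. MEF2C itself read 536 to 560 CPM (counts over the TMM-scaled library size, times 1000000) in SCR1 and 495 to 553 CPM in KO, a log2 fold change of -0.12 (SE 0.04, edgeR quasi-likelihood test with Benjamini-Hochberg adjustment, adjusted p = 0.0620), and 5 of 6 KO libraries were below every control. DESeq2, the tool the study's methods name, called MEF2C lower in KO (-0.117, adjusted p = 0.0199) and with sgRNA_96 (-0.139, adjusted p = 0.0274). The edgeR test, run over 14436 genes, gave every adjusted p that follows, and a gene was called at an adjusted p under 0.05.

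Promoter sequence was available from RefSeq (GRCh38.p14) for 7 of the 9 antigens, in 15 windows of 250 bases upstream of a start site. It is printed for CD9, MME and CD72, called antigens whose window ends at the start of their most abundant transcript. Capitals mark the E-box letters CANNTG, the class of site that TCF3 and other basic helix-loop-helix factors bind.
CD9: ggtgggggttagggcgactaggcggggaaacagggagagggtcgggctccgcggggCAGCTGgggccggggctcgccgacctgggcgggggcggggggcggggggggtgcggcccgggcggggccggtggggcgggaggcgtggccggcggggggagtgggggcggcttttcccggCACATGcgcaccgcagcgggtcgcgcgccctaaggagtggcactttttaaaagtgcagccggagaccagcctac
MME: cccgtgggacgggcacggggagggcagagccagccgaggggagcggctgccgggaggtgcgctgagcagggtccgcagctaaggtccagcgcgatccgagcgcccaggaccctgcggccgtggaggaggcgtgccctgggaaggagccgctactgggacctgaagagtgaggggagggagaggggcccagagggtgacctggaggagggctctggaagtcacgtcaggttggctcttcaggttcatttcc
CD72: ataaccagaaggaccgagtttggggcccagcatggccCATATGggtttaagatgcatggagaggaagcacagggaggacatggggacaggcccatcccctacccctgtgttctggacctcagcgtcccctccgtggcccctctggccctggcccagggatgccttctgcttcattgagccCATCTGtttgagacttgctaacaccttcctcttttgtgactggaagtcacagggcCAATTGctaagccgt
The windows are chr12:6200150-6200399 and chr3:155080069-155080318 on the plus strand and chr9:35618414-35618663 on the minus strand. In the printed windows CD72 held 3 E-box matches, CD9 2 and MME 0, and 61.8% of 35116 promoter windows held at least 1. The windows not printed held 1, 2 and 1 matches for MME and 3, 3 and 0 for CD9. The first of these MME windows ends at the start of MME-203, nearly as abundant as MME-201. The HLF letters TTACNTAA were found on neither strand in any of the 15 windows, against 1.98% of all promoters, and the MEF2 consensus was also in 0 of 15, against 2.8%. CANNTG and the MEF2 consensus read the same on both strands, and no printed match overlaps another. These counts say only that the letters are or are not in these windows.

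All 9 antigens passed the filter on low counts, CD34 only because 3 KO libraries reached the 0.549 CPM it asks for, which 0 control libraries did. In KO against SCR1, 5 of 9 were called higher and 0 lower by edgeR, CD38 alone having a lower level at an unadjusted p under 0.05 (0.0168), and without CD34, which had to differ to be tested, 4 of 8 were called. Over all genes 10.1% were called higher and 10.6% lower. Because the antigens were chosen with earlier results of these data known, setting their counts against these shares is no test of the set. With sgRNA_96 alone 5 antigens were called higher and 0 lower, against 5.78% and 5.41% of all genes, and with sgRNA_97 alone 4 were higher and 0 lower, against 7.35% and 7.76%. Leaving CD34 aside, the guides' counts were 4 of 8 and 3 of 8. The sgRNA_96 count fell to 2 without SCR1 replicate 1 and to 3 without SCR1 replicate 4, sgRNA_96 replicate 3 or sgRNA_96 replicate 4. Both guides were set against the same SCR1 libraries. By CPM all KO libraries lay above all controls for 6 of the 9 antigens and below them for 0, against 10.1% and 10.2% of all genes. The 6 include CD34, which had to be higher in KO to be tested.

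**Figure D1:**
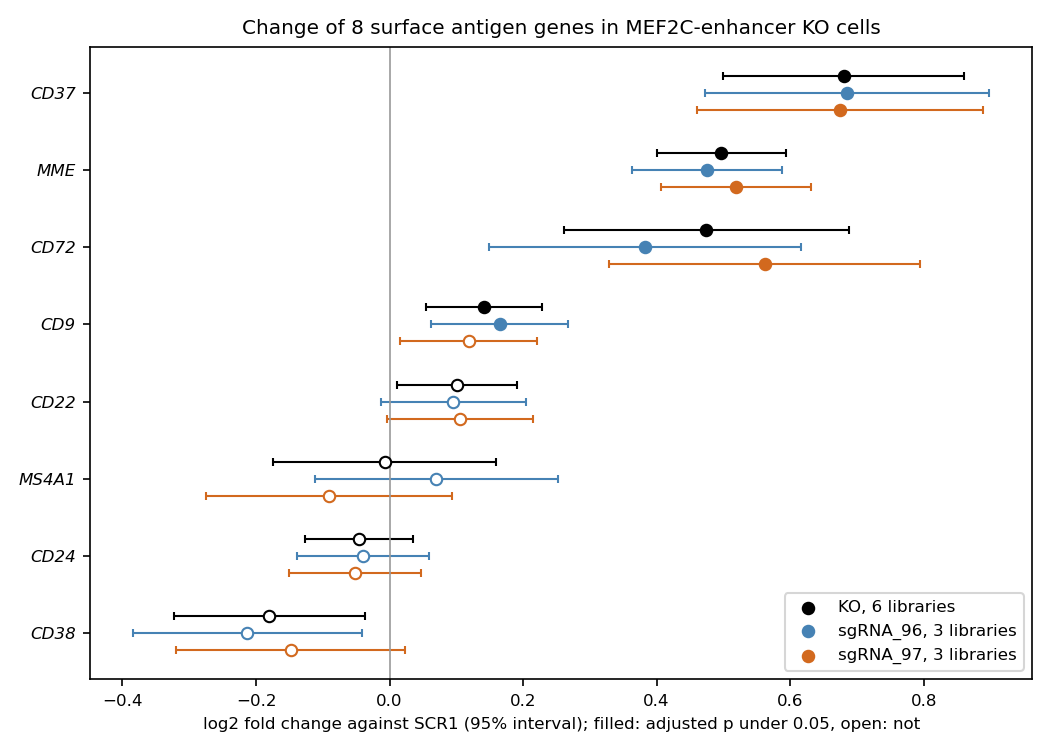
Log2 fold changes against SCR1 (horizontal axis, with 95% intervals) of the 8 antigens other than CD34, for the 6 KO libraries together and for each guide with 3 libraries. Filled points have an adjusted p under 0.05. CD37, MME and CD72 lie to the right of 0 with both guides, and the intervals of MS4A1 and CD24 include 0 in each comparison.

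Per length, CD24 and CD9 stood far above the others in the control cells. By TPM, Salmon's abundance per unit of transcript length, SCR1 levels ran from CD24 at 570 ± 5.37 (SD, n = 3) and CD9 at 548 ± 7.72 through MME at 148 ± 8.32 and CD22 at 123 ± 4.95. CD72 followed at 24.2 ± 1.81 TPM, CD37 at 19.2 ± 3.09, MS4A1 at 16.4 ± 1.70 and CD38 at 14.6 ± 0.965. CD34 was last at 0.0314 ± 0.0131 TPM. CD37 and MS4A1 were the only neighbours in that order whose control libraries overlapped. CD24 and CD9 stood at the 98.6th percentile of the tested genes by TPM, MME at the 94.6th, CD22 at the 93.5th, and CD34 at the 0.427th. In KO libraries the order of CD24 and CD9 was turned, with mean TPM of 545 ± 30.3 for CD24 and 614 ± 27.96 for CD9 (SD, n = 6), ranges 521 to 600 and 574 to 650 that overlap.

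Of the antigens carried by B cell precursors, MME and CD9 were called higher and CD24 and CD38 were not called. MME, the zinc endopeptidase neprilysin by which common ALL is recognised (chr3:155024124-155183704, plus strand), read 452, 478 and 475 CPM in SCR1 replicates 1, 3 and 4. With sgRNA_96 it read 606, 655 and 691 CPM, and with sgRNA_97 689, 676 and 648 CPM. The lowest KO library was thus well above the highest control, and the guides' ranges overlapped. The mean went from 468 ± 14.2 (SD, n = 3) to 661 ± 31.9 CPM (SD, n = 6), a log2 fold change of 0.50 (SE 0.05, 95% interval 0.40 to 0.59, adjusted p = 2.45e-06). The log2 fold change was 0.47 with sgRNA_96 (adjusted p = 4.7e-05) and 0.52 with sgRNA_97 (adjusted p = 2.45e-05). In bulk RNA, more cells with an antigen and more RNA per cell cannot be told apart.

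CD9, a tetraspanin that organises integrins and other partners in the membrane (chr12:6199715-6238271, plus strand), moved less. Its controls read 462, 430 and 456 CPM. The sgRNA_96 libraries read 514, 495 and 502 CPM and the sgRNA_97 libraries 510, 473 and 481 CPM. Every KO library was above every control, the nearest being sgRNA_97 replicate 3 and SCR1 replicate 1. The log2 fold change was 0.14 (SE 0.04, 95% interval 0.05 to 0.23, adjusted p = 0.0221). It was called with sgRNA_96 (log2 fold change 0.16, adjusted p = 0.0380) and not with sgRNA_97 (0.12, adjusted p = 0.112), and the sgRNA_96 call was lost under 10 of 16 alternatives, among them leaving out any one library of sgRNA_96 or SCR1 (highest adjusted p = 0.147). The call in KO was lost without SCR1 replicate 3, the lowest control (log2 fold change 0.11, adjusted p = 0.130), and without SCR1 replicate 4 (0.15, adjusted p = 0.0602).

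CD24, a small glycoprotein held by a lipid anchor (chr6:106969831-106975627, minus strand), read 740, 752 and 752 CPM in SCR1 and between 699 and 766 CPM in KO, with a median of 716. Of the 6 KO libraries 4 were below every control and 1 was above. Its log2 fold change was -0.05 (SE 0.04, adjusted p = 0.434), with a 95% interval of -0.13 to 0.03. CD24 has processed copies elsewhere in the genome, and the annotated ones, CD24P1, CD24P2 and CD24P5, held 0 counts in every library.

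CD38, an ectoenzyme that consumes NAD (chr4:15778275-15853232, plus strand), read 45.7, 51.7 and 47.8 CPM in SCR1. The KO libraries read between 36.7 and 46.3 CPM with a median of 43.2, and 5 of 6 were below every control. The log2 fold change was -0.18 (SE 0.07, 95% interval -0.32 to -0.04, adjusted p = 0.0707). It was -0.21 with sgRNA_96 (adjusted p = 0.101) and -0.15 with sgRNA_97 (adjusted p = 0.237). In KO it passed the threshold with no filter on low counts (adjusted p = 0.0382) and with the replicate number as a block (adjusted p = 0.0418). It passed under no other of the 16 alternatives, where the adjusted p reached 0.570. In TPM the groups overlapped, at 13.5 to 15.2 in SCR1 and 9.94 to 16.2 in KO.

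**Figure D2:**
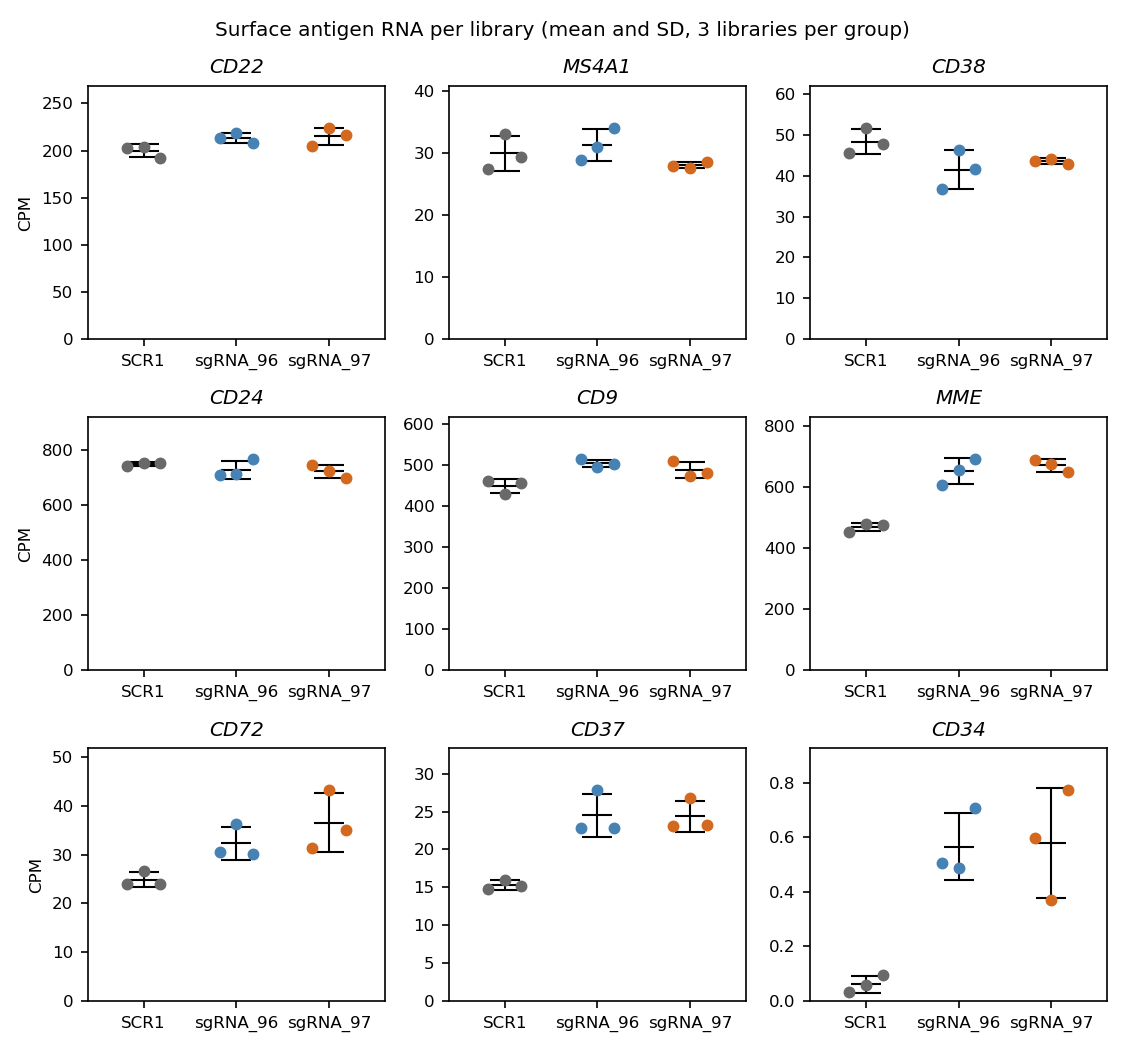
CPM (vertical axis, each panel from 0) of the 9 antigens in each library, grouped by guide on the horizontal axis, with replicates 1, 3 and 4 from left to right and the mean and SD over 3 libraries as bars. In the panels of MME, CD72, CD37, CD34, CD9 and CD22 all 6 KO points lie above the 3 SCR1 points, while those of MS4A1 and CD24 overlap.

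Of the inhibitory receptors, CD72 rose and CD22 was not called. CD72, a C-type lectin whose cytoplasmic tail recruits the phosphatase SHP-1 (chr9:35609982-35646810, minus strand), read 24.0, 26.6 and 24.0 CPM in SCR1. It read 30.6, 36.2 and 30.1 CPM with sgRNA_96 and 31.4, 43.2 and 34.98 CPM with sgRNA_97. No KO library overlapped the controls, and replicate 3 was the highest of each group. On the log2 scale the fold change was 0.47 (SE 0.10, 95% interval 0.26 to 0.69, adjusted p = 0.00364), with means of 24.9 ± 1.52 CPM in SCR1 (SD, n = 3) and 34.4 ± 4.97 CPM in KO (SD, n = 6). It was 0.38 with sgRNA_96 (adjusted p = 0.0353) and 0.56 with sgRNA_97 (adjusted p = 0.00347). Without sgRNA_96 replicate 3 the sgRNA_96 value was 0.29 (adjusted p = 0.173), and it also missed the threshold without SCR1 replicate 1 (0.35, adjusted p = 0.137) and without SCR1 replicate 4 (0.36, adjusted p = 0.115). The CD72 gene overlaps the end of TESK1 on the opposite strand, TESK1 held 491 to 1385 counts per library, and strand use in the counting is not given in the sources used here.

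CD22, a sialic acid-binding receptor and the target of inotuzumab ozogamicin (chr19:35319261-35347361, plus strand), read 203, 204 and 192 CPM in SCR1. The sgRNA_96 libraries read 213, 219 and 208 CPM and the sgRNA_97 libraries 205, 224 and 216 CPM. By CPM all 6 were above every control, sgRNA_97 replicate 1 by the least. In TPM the groups overlapped, at 119 to 128 in SCR1 and 125 to 139 in KO. The log2 fold change of 0.10 (SE 0.04, 95% interval 0.01 to 0.19) was not called (adjusted p = 0.104). A lncRNA of 14 to 31 counts per library, ENSG00000269553, lies inside CD22 on the same strand.

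Of the antigens typical of mature B cells, CD37 rose and MS4A1 was not called. CD37, a tetraspanin restricted mostly to leukocytes (chr19:49335171-49343335, plus strand), read 14.7, 16.0 and 15.2 CPM in SCR1. It read 22.9, 27.8 and 22.8 CPM with sgRNA_96 and 23.1, 26.7 and 23.2 CPM with sgRNA_97. The controls stayed close together and no KO library came near them. KO libraries were higher by a log2 fold change of 0.68 (SE 0.09, 95% interval 0.50 to 0.86, adjusted p = 5.24e-05), with means of 15.3 ± 0.655 CPM in SCR1 (SD, n = 3) and 24.4 ± 2.24 CPM in KO (SD, n = 6). The guides gave 0.68 (sgRNA_96, adjusted p = 5.0e-04) and 0.67 (sgRNA_97, adjusted p = 5.3e-04).

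MS4A1, which encodes CD20, the target of rituximab (chr11:60455846-60470752, plus strand), read 27.4, 33.0 and 29.4 CPM in SCR1. The sgRNA_96 libraries read 28.9, 31.0 and 34.02 CPM and the sgRNA_97 libraries 27.995, 27.6 and 28.5 CPM. The groups overlapped. The log2 fold change in KO was -0.01 (SE 0.08, 95% interval -0.17 to 0.16, adjusted p = 0.961), and its sign turned with the gene length offset and with limma on TPM. With sgRNA_96 the log2 fold change was 0.07 and with sgRNA_97 it was -0.09.

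CD34, the sialomucin of stem and progenitor cells (chr1:207880972-207911402, minus strand), was close to the limit of detection. Its estimated counts were 1, 1 and 2 in SCR1, 8, 10 and 13 with sgRNA_96 and 9, 7 and 13 with sgRNA_97. Each KO library held more counts than any control. Summed, 60 counts against 4 gave a ratio of 9.66 per scaled library, with an exact interval for counting error of 3.58 to 36.6. The edgeR log2 fold change was 3.13 (SE 0.57, adjusted p = 0.00125), which at such counts depends on the prior count of the fit. Since CD34 entered the test only through its KO libraries, it had to be higher in KO to be tested, and its p-values are no support for the difference. It was called with sgRNA_96 (3.122, adjusted p = 0.0064) and sgRNA_97 (3.14, adjusted p = 0.00536), and the sgRNA_96 call was lost without SCR1 replicate 1 (2.76, adjusted p = 0.0544). With limma on log2(TPM + 1) the difference was 0.28 (adjusted p = 0.0898). In TPM the KO libraries stayed between 0.174 and 0.339, under the 9.94 of the lowest CD38 library.

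Between the guides no antigen was called. Of 9 antigens 0 passed the threshold in sgRNA_97 against sgRNA_96 by edgeR, 0 had an unadjusted p under 0.05, and DESeq2 and limma called 0 as well, where 0.0208% of all genes were called. The widest differences on the log2 scale were 0.18 for CD72 (95% interval -0.05 to 0.41) and -0.16 for MS4A1 (95% interval -0.35 to 0.02, lowest unadjusted p = 0.0839). For MME the 95% interval was -0.07 to 0.16 and for CD37 -0.22 to 0.20.

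The antigens differ in how their RNA is divided among transcripts. Annotation lists 130 transcripts for the 9 genes, of which 68 could be tested and 18 hold at least 10% of their gene's estimated counts over the 9 libraries. By edgeR, 0 of the 68 were called in KO against SCR1, 10 had an unadjusted p under 0.05, and 0.633% of 54988 transcripts were called. CD24-201 took 94.5% of CD24 counts and CD38-201 89.4% of CD38 counts, while CD22-201 took 66.6% and CD9-201 60.4% of theirs. CD9-201 had a log2 fold change of 0.08 (SE 0.06, edgeR, adjusted p = 0.809 over transcripts). The second coding transcript, CD9-204, had -0.03 (SE 0.10), so the call of CD9 rests on the gene sum. The shares are estimates that Salmon makes from reads common to several transcripts, and they are given without a test.

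MME was split among 3 transcripts with the same coding length of 2250 bases, which start within 647 bases of each other. MME-201 held 33.8% of the gene's counts, MME-203 33.5% and MME-214 21.2%. MME-201, which starts at the printed window, held 35.03%, 30.9% and 21.2% of MME counts in SCR1 and 30.7% to 41.3% in KO. Its log2 fold change of 0.75 (SE 0.17) was not called over transcripts (edgeR, adjusted p = 0.116), and the other two had 0.27 (SE 0.16) and 0.35 (SE 0.30).

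CD37 counts went mainly to CD37-201, at 53.1%. This coding transcript had a log2 fold change of 0.31 (SE 0.21, edgeR, adjusted p = 0.821 over transcripts). CD37-204, also coding, had 0.95 (SE 1.07). The rise of CD37 was thus called for the sum of coding and non-coding transcripts and not for a coding transcript alone. The retained-intron transcript CD37-212, which has no coding sequence in the annotation, held 10.9%, 9.85% and 11.8% of CD37 counts in SCR1. It held 16.3%, 17.5% and 16.7% with sgRNA_96 and 12.98%, 13.3% and 16.8% with sgRNA_97. No KO library overlapped the controls in this share, and how often shares separate in this way over all transcripts was not counted. Its own log2 fold change was 1.148 (SE 0.24, edgeR, adjusted p = 0.0927 over transcripts), on 27.7 to 100 estimated counts per library. Protein-coding transcripts together held 76.8 ± 9.53% (SD, n = 3) of CD37 counts in SCR1 and 68.4 ± 7.32% (SD, n = 6) in KO.

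CD72 divided its counts between CD72-201 (63.5%) and CD72-210 (30.3%), a transcript with no defined coding sequence. CD72-210 held 26.6% to 30.5% of the counts in SCR1 and 27.6% to 34.5% in KO, and the ranges overlap. For MS4A1 the first transcript, MS4A1-212, held 45.0% to 55.5% in SCR1, 44.1% to 46.5% with sgRNA_96 and 58.3% to 65.3% with sgRNA_97. The sgRNA_97 libraries were thus above all others in that share, and how often this occurs over all transcripts was not counted. CD34 counts fell to CD34-203, which starts 20633 bases inside the gene's RefSeq start and took 71.9%, and to CD34-201 with 24.95%. On 4 control counts such a division carries little information.

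**Figure D3:**
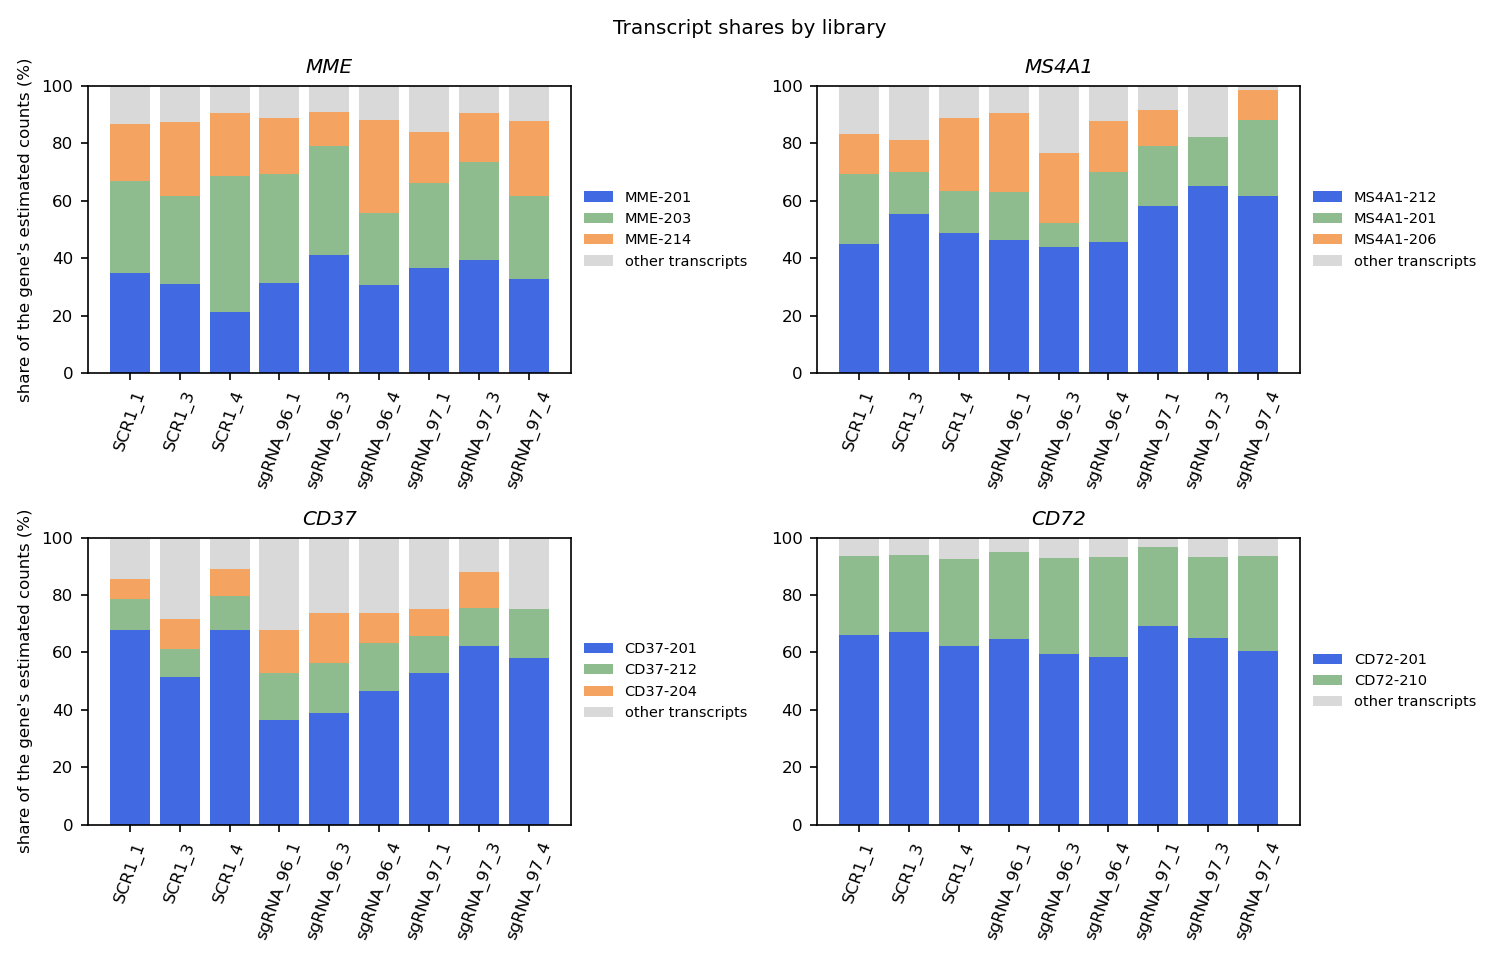
Share of each gene's estimated counts (percent, vertical axis) held by the transcripts with at least 10% of the gene, for MME, MS4A1, CD37 and CD72 in the 9 libraries (horizontal axis). CD37-212 takes a larger share in all 6 KO libraries than in the 3 SCR1 libraries, and MS4A1-212 takes its largest shares in the 3 sgRNA_97 libraries. The shares were not tested.

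Genes whose profile over the 9 libraries was nearest to a called antigen were sought among genes of at least 10 CPM, by the root mean square distance of log2 CPM after centring each gene. Nearest to MME were ZMAT3 (0.03), SAMD9L (0.04) and GALNT7 (0.04). For CD72 they were MSH5 (0.07), NEIL1 (0.08) and SMIM3 (0.08), and for CD37 NRN1 (0.07), GAS6-AS1 (0.08) and IL1B (0.08). For CD34 the nearest was ACTG1P22 at 0.40. CD34 itself, at 0.0339 to 0.772 CPM, lay far under the level asked of these genes. That distance therefore cannot show whether CD34 stands apart.

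Other surface molecules had calls in both directions, more of them higher than lower. Of 29 other B-lineage antigens 18 were tested, and 6 were called higher and 1 lower, against 10.1% and 10.6% of all genes. Their median log2 fold change was 0.15, against 0.00279 over all genes and 0.14 over the 9 antigens. CD52, a lipid-anchored peptide and the target of alemtuzumab, rose by 0.56 on the log2 scale (adjusted p = 7.5e-06), TNFRSF13C, the BAFF receptor, by 0.46 (adjusted p = 4.4e-05) and CD200, an inhibitory ligand, by 0.43 (adjusted p = 6.6e-04). FCRLA, an intracellular Fc receptor-like protein, was the one called lower (-0.26, adjusted p = 0.0494), a call lost under 10 of 16 alternatives.

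Among 22 tested progenitor antigens and further therapy targets, 8 were called higher and 1 lower, against 10.1% and 10.6% of all genes. CRLF2, a subunit of the TSLP receptor, read 2.33 ± 0.1503 CPM in SCR1 (SD, n = 3) and 4.99 ± 0.248 CPM in KO (SD, n = 6), a log2 fold change of 1.09 (adjusted p = 1.4e-04). IL3RA, the CD123 receptor chain, had a log2 fold change of 0.78 (adjusted p = 0.0228), which without SCR1 replicate 1 was 0.52 (adjusted p = 0.155). CD33, a myeloid relative of CD22, rose by 0.61 on the log2 scale (adjusted p = 0.00162). CD69, an early activation antigen, was the one called lower (-1.28, adjusted p = 0.0443), at 1.45 ± 0.473 CPM in SCR1 (SD, n = 3) against 0.590 ± 0.354 CPM in KO (SD, n = 6), a call lost under 10 of 16 alternatives. IL3RA and CRLF2 lie in a pseudoautosomal region, so each symbol has 2 gene identifiers, and how reads were divided between these was not tested. The higher calls numbered 3 with the gene length offset, 3 or 4 with limma, and 4 without SCR1 replicate 1 or replicate 4.

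CD9 and CD37 are tetraspanins, a family of proteins that cross the membrane several times and gather partners there. Of 18 other tetraspanins tested 4 were called higher and 2 lower, against 10.1% and 10.6% of all genes. Their median log2 fold change was 0.04. CD82 (0.37, adjusted p = 0.0125), TSPAN9 (0.34, adjusted p = 0.0126) and TSPAN31 (0.28, adjusted p = 0.0222) were higher. CD151 (-0.34, adjusted p = 0.00175) and CD81, a widely expressed tetraspanin (-0.23, adjusted p = 0.00480), were lower. The higher calls fell to 2 without SCR1 replicate 3 and to 0 without SCR1 replicate 4, with the gene length offset or with limma, and the lower ones to 1 without SCR1 replicate 1. A further list, mostly of family members of the remaining antigens, gave 2 higher calls among 8 tested, where 10.1% of all genes were called higher. These were CD33 and CD52, both already counted in the lists above, and CD52 was not listed as a family member. With limma or the gene length offset this list gave 1.

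Ligands, partners and signalling proteins of the antigens gave 6 higher and 4 lower calls among 25 tested, against 10.1% and 10.6% of all genes. BLNK, the adaptor downstream of the B cell receptor (0.34, adjusted p = 2.9e-04), and CBLB, a ubiquitin ligase (0.29, adjusted p = 0.0209), were higher. IGSF8, a membrane partner of CD9 (-0.30, adjusted p = 0.0314), and LYN, the kinase that phosphorylates the tails of CD22 and CD72 (-0.20, adjusted p = 0.0175), were lower. PTPN6, which encodes SHP-1, was not called (-0.11, adjusted p = 0.190). With limma or the gene length offset 1 was higher and 1 lower, and without SCR1 replicate 1 the counts were 3 and 0. Lower calls numbered 2 without SCR1 replicate 3 or replicate 4.

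**Figure D4:**
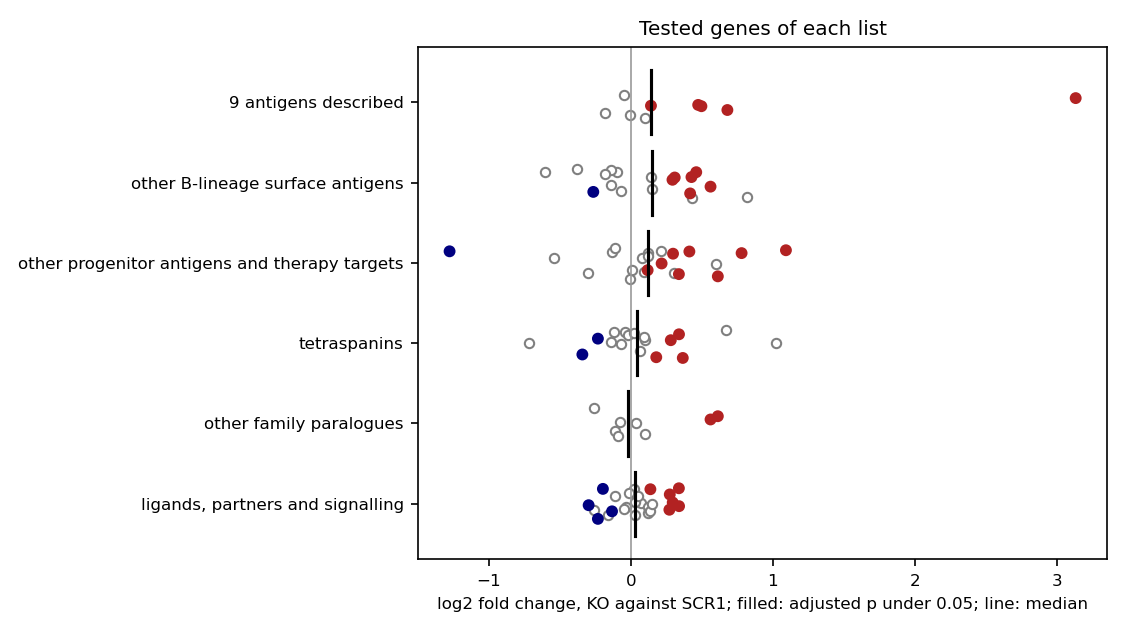
Log2 fold changes in KO against SCR1 (horizontal axis) of the tested genes in each list (vertical axis), with the list's median as a line, and genes with an adjusted p under 0.05 filled in red where higher and blue where lower. CD34 at 3.13 is the point farthest to the right, and the 9 antigens hold 5 higher and 0 lower calls.

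The lineage label held in every library. B cell precursor markers were all detected, with a summed level of 5411 to 5612 CPM in SCR1 and 5944 to 6193 CPM in KO, to which DNTT gave 39.8%. Of these 12 genes 5 were called higher and 0 lower, against 10.1% and 10.6% of all genes. Among the 5 were RAG1 (0.87, adjusted p = 1.1e-07) and IKZF3 (0.89, adjusted p = 9.1e-05), the latter at 6.19 CPM in SCR1. IGLL1 (-0.18), CD79B (-0.14), CD79A (-0.10), EBF1 (-0.09) and PAX5 (-0.02) were lower and VPREB1 (0.15) and LEF1 (0.02) higher, without a call. T cell, NK and myeloid markers summed to 90.1 to 91.1 CPM in SCR1 and 79.6 to 90.2 CPM in KO, 8 of 21 were at 0 in every library, CD3D, CD3E, CD3G and ELANE included, and 54.6% of the sum was TRAC. Of 5 tested, MPO (1.08, adjusted p = 8.9e-04) and ITGAM (0.74, adjusted p = 1.6e-04) were higher, NKG7 (-0.30, adjusted p = 0.0430) and TRAC (-0.24, adjusted p = 0.00994) lower. The NKG7 call was lost under 11 of 16 alternatives (highest adjusted p = 0.143), that of ITGAM under 3 and that of TRAC under 1. Erythroid, megakaryocyte and stromal markers summed to 23.1 to 27.9 CPM in SCR1 and 19.9 to 24.97 CPM in KO, 84.3% of it PDGFRB, with 11 of 16 at 0. The part of these lists in the antigens' changes was not tested.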

How the data were processed

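RNA-seq of 9 HAL-01 libraries was analysed, with groups from the sample titles. The authors aligned trimmed reads with STAR to GRCh38 and quantified them with Salmon 1.10.1. They deposited estimated counts per transcript, without normalization, and TPM, scaled for transcript length to a fixed total. All 252835 transcripts matched GENCODE 44. Estimated counts (15212462 to 29777361 per library, 87.8% of those above 0 not whole) were summed per gene and rounded. CPM are counts over TMM-scaled library sizes. Genes passing filterByExpr (minimum count 10) went into edgeR 4.0.16 (R 4.3.3) for its quasi-likelihood test, as 6 KO against 3 SCR1 libraries and in a fit of 3 groups for each guide, with Benjamini-Hochberg adjustment over 14436 genes (threshold 0.05), and transcripts likewise over 54988. The study's methods name DESeq2, used here (1.42.0) as an alternative beside limma 3.58.1 on log2(TPM + 1) and log2(TPM + 0.1), relative log expression scaling, no filter, a replicate block, a gene length offset and leaving out each library. Fits were tested on simulated data. The planned test of transcript shares (edgeR, diffSpliceDGE) did not work on simulated data, so shares have no test. The antigens and lists were chosen with earlier results of these data known. The text names all 9 antigens, their transcripts with at least 10% of a gene's counts, MEF2C and, per list, up to 3 called genes a direction with the largest change; a gene that this rule names is not reported here. PTPN6, the B cell precursor markers without a call and the gene overlapping CD22 or CD72 were named after their values were seen. Intervals on counts cover counting error only.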

Additional observations from a re-analysis of the deposited data

Results flagged for a closer look

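MEF2C in sgRNA_97 replicate 1 read 553 CPM, against 495 to 510 CPM in the remaining KO libraries, and stood apart from them by 0.737 of the range of all 6, more than Dixon's 95% critical value allows. Of 26 values checked in this way chance would give about 1.3 such gaps. Without that library the MEF2C log2 fold change was -0.14 (edgeR, adjusted p = 0.0143), and DESeq2 called MEF2C lower with all libraries kept (-0.117, adjusted p = 0.0199).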

How the results depend on the processing

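MME, CD72 and CD37 kept their higher call in KO under all 16 alternatives, and MME and CD37 also with either guide. CD9 lost its KO call under 3 of 16 (range of adjusted p 0.00262 to 0.130) and its sgRNA_96 call under 10, CD72 its sgRNA_96 call under 6. For CD34 DESeq2 gave no adjusted p, and when some libraries were left out CD34 failed the filter and went untested. In all 12 alternatives gave a value, 1 of which ended the KO call. Where the filter applied, CD34 had to be high in KO to be tested. Its kept calls are therefore no support for the difference. CD38 was called lower with no filter and with the replicate block, and under no other of the 16 alternatives (highest adjusted p = 0.570). The KO count of called antigens ran from 4 to 6 and that of sgRNA_97 from 3 to 4. With sgRNA_96 it was 3 under the gene length offset, 2 with limma at either pseudocount, and 2 to 5 when 1 library was left out. MS4A1 in KO turned positive with the gene length offset (0.0679) and limma (0.0569 and 0.0595 at pseudocounts 1 and 0.1), and ran from -0.0731 to 0.0619 when 1 library was left out.

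The gene length offset called 1526 genes in KO, 661 with sgRNA_96 and 927 with sgRNA_97. Limma called 1240 and 1246, 448 and 451, and 706 and 706 at the pseudocounts 1 and 0.1. Leaving out 1 library gave 1503 to 3547, 760 to 2027 and 987 to 2501 genes, the fewest in KO without SCR1 replicate 1 and then without SCR1 replicate 4 (1813). In sgRNA_97 against sgRNA_96, 3 genes became 106 with no filter, 8 with DESeq2, 1 with the replicate block, 1 with the gene length offset, 0 with limma at either pseudocount and 1 to 5 with a library left out. Called transcripts fell from 348 to 142 with no filter, to 171 with the replicate block, and ran from 55 to 401 with a library left out. The cause of these shifts was not tested.

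The replicate numbers were not used to pair the samples in the main fit. Correlations of same-numbered libraries' deviations ran from -0.19 to 0.29, and those of differently numbered libraries from -0.24 to 0.31. With 3 libraries per group these values cannot exclude a batch shared by a replicate number. With the replicate block 2936 genes were called in KO, 2805 of them shared with the 2984 without it, and 6 antigens in place of 5. The share test of transcripts is not reported. Depth limited CD34 most, with 1 or 2 counts per control library.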
